A study of Mus musculus with 6 samples.

Results

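Monocyte and macrophage-like cells made up a small fraction of the cells in 6 single cell RNA libraries that were prepared from mice to profile germinal center (GC) B cells. The members were selected on their measured UMI counts, and 689 of 21924 retained barcodes (3.14%) met the rule. Of these, 596 of the 689 (86.5%) came from a single library, replicate 2 of the *Smc3* +/- group. A barcode was retained with at least 300 detected genes and less than 10% mitochondrial unique molecular identifiers (UMIs). It was then counted as a member cell where at least 4 of the 5 genes *Lyz2*, *Fcer1g*, *Tyrobp*, *Cst3* and *Psap* were detected, *Cd79a* had at most 1 UMI, *Cd3d*, *Cd3e* and *Cd3g* had none, and 8 granule genes of neutrophil precursors (*Elane*, *Mpo*, *Prtn3*, *Ctsg*, *Ngp*, *Camp*, *Ltf* and *Lcn2*) together had fewer than 10 UMIs. These counts chose the cells, so the levels of the rule genes and the contrast of member cells with other barcodes are given as a description, with no test.

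There were 3 libraries labelled WT control and 3 labelled *Smc3* +/-, in which Cre deletes 1 copy of the gene for a core cohesin subunit. All 6 came from mice with the Cgamma1-Cre allele, so the WT control libraries carried Cre as well. This Cre is expressed from an immunoglobulin locus when B cells enter the GC reaction, so the deletion is made in those B cells, and the myeloid cells described here are not known to carry it and may keep both copies. According to the methods of the study, spleens were taken after the mice had been immunized with sheep erythrocytes and the cells were sorted. The labels name GC B cells, so every cell described here lay outside the labelled type. Nothing in the labels gave strain, age or sex. The study also used further wild-type libraries, which were not analysed here.

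Monocytes are made in the bone marrow and circulate as *Ly6c2*-high classical and *Ly6c2*-low patrolling cells, and the spleen holds a reservoir of them. Red pulp macrophages are resident cells of the spleen that engulf aged red blood cells, break down heme and return iron to the blood, and their formation requires the transcription factor Spi-C. Conventional dendritic cells (cDC1 and cDC2) share many of these genes, carry high MHC class II and present antigen to T cells. *Lyz2* encodes lysozyme, *Fcer1g* and *Tyrobp* encode signalling adaptors that Fc and lectin receptors use, *Cst3* encodes cystatin C, and *Psap* encodes a precursor of lysosomal saposins.

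Replicate 2 of *Smc3* +/- stood apart from the other 5 libraries before any comparison of genotypes. The labels give it the same cell type as the rest, and whether it was sorted in the same way cannot be settled from the values here, which bears on its share of member cells and on every mean of its group. In it 52.9% of all UMIs came from immunoglobulin genes (2.38 to 4.05% in the rest), and its 42 neutrophil-lineage barcodes, which met the *Cd79a* and *Cd3* conditions with 10 or more granule UMIs, were not matched by any such barcode in another library. Y-linked and *Xist* transcripts put it with WT control replicates 1 and 2 as male, and the other 3 libraries as female. Total UMIs per library ran from 5223325 to 35354257. Pairs of libraries shared 4 to 43 barcodes over the 15 pairs, and no member cell had a barcode that was a member in another library. The share of member cells, the medians of the main lists and the fold changes of single genes are therefore given with and without it.

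The share of member cells was uneven across libraries. Of retained barcodes, WT control replicates 1, 2 and 3 held 13 cells (1.23%, 95% exact binomial interval 0.654 to 2.09), 17 cells (0.326%, 0.190 to 0.521) and 31 cells (0.690%, 0.469 to 0.978). Replicates 1, 2 and 3 of *Smc3* +/- held 12 cells (0.486%, 0.251 to 0.847), 596 cells (15.4%, 14.3 to 16.6) and 20 cells (0.415%, 0.253 to 0.640). Replicate 2 of *Smc3* +/- was thus 12.6 times the highest of the other libraries, while the other 2 *Smc3* +/- libraries lay inside the range of the WT controls. The intervals cover counting error only. With each barcode thinned to 1000 UMIs, the shares were 0.616, 0.272 and 0.451% in WT control and 0.292, 13.2 and 0.294% in *Smc3* +/-, with 58 to 161 shallower barcodes left out per library and replicate 2 of *Smc3* +/- again the highest. Among barcodes with under 50% immunoglobulin UMIs its share was 26.5%, and 0.327 to 1.25% in the others.

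**Figure D1:**
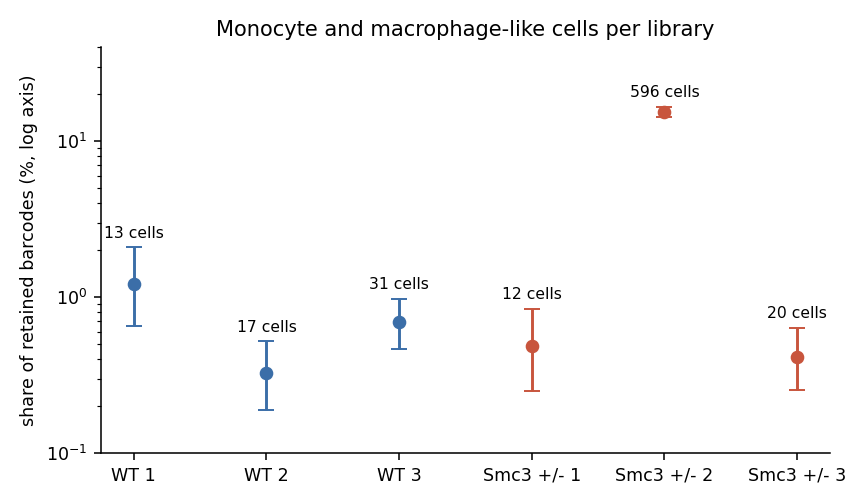
Share of retained barcodes (%, log axis) that were monocyte and macrophage-like cells in each library, with the number of cells above each point and exact 95% binomial intervals as bars, WT control in blue and Smc3 +/- in red. Smc3 +/- replicate 2 sits at 15.4%, and the other 5 libraries lie between 0.326% and 1.23%.

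The genotypes did not differ in this share by more than the spread between libraries. The mean was 0.747% ± 0.452 (SD, n = 3) in WT control and 5.45% ± 8.65 (SD, n = 3) in *Smc3* +/-, a difference of 4.70 percentage points (two-sided exact permutation test, p = 0.8, with 0.1 the smallest p that 3 against 3 libraries allow). Without replicate 2 of *Smc3* +/- the direction turned, with a difference of -0.297 percentage points (exact permutation test, p = 0.6).

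The rule cut through a continuum of detection. Of the 689 cells, 526 had all 5 genes and 163 had exactly 4, and a further 70 barcodes that passed the other conditions had 3. At the *Cd79a* limit 27 member cells had 1 UMI and 6 barcodes just outside had 2, and at the granule limit 3 member cells had 7 to 9 UMIs and no barcode had 10 to 12. Lymphocytes gave the background: among barcodes with at least 2 *Cd79a* UMIs, 0 to 0.260% had 4 or more of the 5 genes in the 5 libraries other than replicate 2 of *Smc3* +/-, and among those with at least 2 *Cd3* UMIs 0 to 2.60% did. In replicate 2 of *Smc3* +/- these shares were 2.95% and 11.5%. The median depth was 3853 to 9876.5 UMIs in the B cells, 1210 to 2008 UMIs in the T cells and 951 to 2701 UMIs in the member cells.

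The targeted gene could not serve as a check here. *Smc3* counted 1, 2 and 2 UMIs in the member cells of WT control replicates 1 to 3, and 1, 97 and 4 in those of *Smc3* +/-. Its level was 63.2, 45.4 and 33.0 CPM (the UMIs of a gene over all UMIs of the cells, scaled to 1000000) in WT control and 43.4, 58.5 and 105 CPM in *Smc3* +/-, and the groups overlapped. The reads come from the 3′ end of the transcript, downstream of the deleted exon, and *Smc3* did not pass the filter on low counts for a test. The 14 cohesin genes of the list summed to 517 to 655 CPM over the 6 libraries, and none of them passed the filter.

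The genes of the rule were high in every library, as the selection required. *Lyz2* was at 17201, 15082 and 10458 CPM in WT control and at 10846, 9023 and 10923 CPM in *Smc3* +/-, compared with 0.921 to 124 CPM in the other retained barcodes. *Tyrobp* was at 4237, 3362 and 4213 CPM in WT control and 3037, 2729 and 3850.5 CPM in *Smc3* +/-. *Fcer1g* was at 3858, 4338 and 5733 CPM in WT control and 3775, 2973 and 3615 CPM in *Smc3* +/-, and *Psap* ran from 3143 to 5179 CPM over the 6 libraries. *Cst3* varied most of the 5, from 3065 to 12565 CPM, with the highest level in replicate 2 of *Smc3* +/-. *Wfdc17*, which encodes a small secreted inhibitor with a WAP domain and was not used by the rule, lay at 1012, 1204 and 975 CPM in WT control and at 1041, 1738 and 759.6 CPM in *Smc3* +/-, against 1.24 to 8.84 CPM elsewhere.

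Ranked by the median over libraries of the log2 ratio to the other retained barcodes (on CPM + 10), the leading 20 genes outside the rule fell into recognizable roles. Genes known from red pulp macrophages included the top 4 and others further down, with *Vcam1* (median log2 ratio 7.88), *C1qb* (7.62), *C1qa* (7.46), *C1qc* (7.39), *Hmox1* (6.83), *Slc40a1* (6.79), *Fcna* (5.89), *Axl* (5.69), *Spic* (5.64) and *Hpgd* (5.62). *C1qa*, *C1qb* and *C1qc* encode the chains of the complement component C1q, *Vcam1* an adhesion molecule, *Hmox1* the heme oxygenase that opens the heme ring, and *Slc40a1* the iron exporter ferroportin. Genes shared by monocytes and macrophages stood between and after them, with the interferon-induced *Ifitm3* (6.94) and *Ifitm2* (6.17), *Wfdc17* (6.50), the chemokine *Ccl6* (6.17), *Lgals3* (6.05), the transferrin gene *Trf* (5.84), *Csf1r* (5.78), *Alox5ap* (5.75) and the lectins *Clec4a3* (5.65) and *Clec4n* (5.60).

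Some of these genes were even across libraries and others were not. The log2 ratio of *Ifitm3* stayed between 5.33 and 7.21 in the 6 libraries, that of *Wfdc17* between 6.09 and 6.75, and that of *Alox5ap* between 5.53 and 6.29. The ratio of *Vcam1* ran from 2.71 to 8.22, that of *Spic* from 1.41 to 6.45 and that of *C1qb* from 3.56 to 8.33, with the lowest value of all 3 in replicate 2 of *Smc3* +/-. Among the genes shared by monocytes and macrophages, *Clec4n* (1.97 to 6.73), *Trf* (2.58 to 7.17) and *Csf1r* (3.96 to 7.10) also ranged widely.

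**Figure D2:**
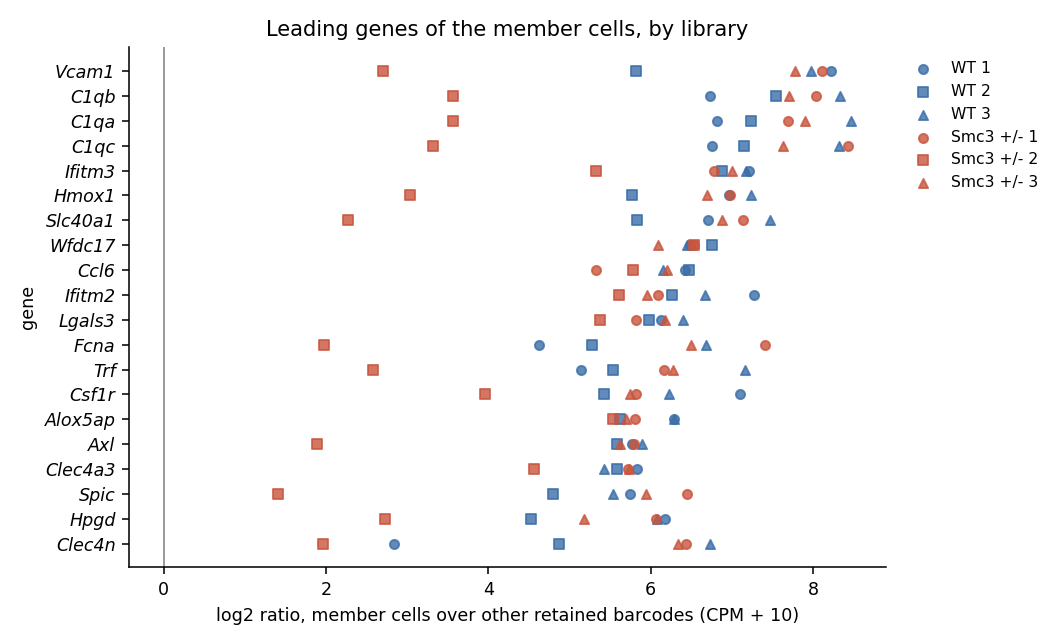
Log2 ratio of the level in member cells over that in the other retained barcodes (CPM + 10) for the 20 leading genes, 1 point per library, WT control in blue and Smc3 +/- in red, with circle, square and triangle for replicates 1, 2 and 3. Smc3 +/- replicate 2 (red squares) lies far to the left for Vcam1, the C1q genes, Hmox1, Slc40a1, Fcna, Axl and Spic, and near the other libraries for Ifitm3, Wfdc17, Ccl6 and Alox5ap.

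The red pulp macrophage genes carried this difference in composition. *C1qb* was at 1202, 1999 and 3502 CPM in the member cells of WT control and at 2820.1, 137 and 2279 CPM in those of *Smc3* +/-. *Spic* was at 569, 273 and 463 CPM in WT control and at 911, 18.1 and 629 CPM in *Smc3* +/-. In both genes replicate 2 of *Smc3* +/- was the lowest library. The other 2 *Smc3* +/- libraries lay within the range of the WT controls for *C1qb* and above all 3 of them for *Spic*. Summed over the 10 genes of the list, the level was 11826, 8222 and 19990.4 CPM in WT control and 17962, 754 and 14197 CPM in *Smc3* +/-, against 10.1 to 20.6 CPM in the other retained barcodes.

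The promoters of genes that the composition turns on are shown, as the 250 bases before the RefSeq start on the GRCm38.p6 build, each on the minus strand and read 5′ to 3′. They are *Lyz2* (chr10:117282273-117282522), the neighbouring *C1qb* (chr4:136886201-136886450) and *C1qc* (chr4:136892915-136893164), whose products assemble into 1 complex, *Spic* (chr10:88683024-88683273), and *Cd209a* (chr8:3748985-3749234), one of the leading genes of the largest cluster of member cells. Capitals mark the string AGGAAGT searched on both strands, which reads ACTTCCT in all matches shown, which contains the GGAA core bound by ETS factors such as PU.1, the factor encoded by *Spi1*.
Lyz2: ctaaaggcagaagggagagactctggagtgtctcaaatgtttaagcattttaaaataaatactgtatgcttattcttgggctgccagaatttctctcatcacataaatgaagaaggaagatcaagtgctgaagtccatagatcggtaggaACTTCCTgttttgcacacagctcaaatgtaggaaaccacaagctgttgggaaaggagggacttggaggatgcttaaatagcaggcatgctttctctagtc
C1qb: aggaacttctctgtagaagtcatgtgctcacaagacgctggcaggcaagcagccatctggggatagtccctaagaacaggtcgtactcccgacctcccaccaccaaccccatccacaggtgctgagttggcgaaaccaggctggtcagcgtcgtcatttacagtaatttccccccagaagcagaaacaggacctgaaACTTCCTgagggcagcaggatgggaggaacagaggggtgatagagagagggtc
C1qc: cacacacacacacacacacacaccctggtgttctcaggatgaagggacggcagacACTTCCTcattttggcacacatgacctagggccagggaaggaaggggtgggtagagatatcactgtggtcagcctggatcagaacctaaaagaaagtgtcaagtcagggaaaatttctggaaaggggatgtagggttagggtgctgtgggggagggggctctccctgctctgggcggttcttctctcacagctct
Spic: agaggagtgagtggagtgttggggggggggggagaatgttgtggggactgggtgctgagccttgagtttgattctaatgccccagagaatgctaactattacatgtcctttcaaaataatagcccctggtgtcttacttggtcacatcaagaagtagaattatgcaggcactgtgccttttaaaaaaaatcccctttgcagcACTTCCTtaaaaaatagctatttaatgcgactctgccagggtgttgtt
Cd209a: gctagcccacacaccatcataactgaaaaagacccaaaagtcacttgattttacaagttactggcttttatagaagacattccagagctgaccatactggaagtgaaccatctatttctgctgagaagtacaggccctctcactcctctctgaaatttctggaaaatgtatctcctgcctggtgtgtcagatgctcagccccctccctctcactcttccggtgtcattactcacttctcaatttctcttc
The string lay 100 bases before the start in *Lyz2*, 53 in *C1qb*, 195 in *C1qc* and 48 in *Spic*, counted to the first base of the match as printed, and was not found in *Cd209a*. The GGAA core alone does occur in the printed *Cd209a* sequence, so only the full string was absent. Of all 32851 promoters of the same length, 7.69% held the full string. Counted by gene, with a match in any promoter of the gene, 5 of the 12 leading genes with a promoter in the table did (*C1qb*, *C1qc*, *Ccl6*, *Fcna* and *Spic*). The first share counts promoters and the second genes, so they are not directly comparable. A longer string that contains it, GAGGAAGT, was found in 2.44% of all promoters and, of the 5 shown, in *C1qc*. The string was chosen after several had been tried and these sequences had been seen, and a match describes letters and not a bound site.

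Other lists showed what the cells shared. The 12 pan-myeloid genes summed to 6723 to 10245 CPM in the 5 libraries other than replicate 2 of *Smc3* +/- and to 5057 CPM in that library, compared with 303 to 502 CPM in other barcodes. *Csf1r*, the receptor for the growth factor that sustains macrophages, was at 1391, 432 and 760.0 CPM in WT control and at 564, 170.0 and 550.1 CPM in *Smc3* +/-. *Fcgr3*, an activating Fc receptor that signals through *Fcer1g*, was at 443, 295 and 562 CPM in WT control and at 477, 203 and 314 CPM in *Smc3* +/-. Replicate 2 of *Smc3* +/- was the lowest library for both receptors. Of the 20 lysosomal genes all reached a mean of 20 CPM, and *Ctsb*, a cysteine protease of the lysosome, was at 3794, 1931 and 4031 CPM in WT control and at 5033, 629 and 3589 CPM in *Smc3* +/-. *Ftl1*, the light chain of the iron store ferritin, reached 11516 to 21216 CPM in the 5 libraries and 6505 CPM in replicate 2 of *Smc3* +/-. *Apoe*, a lipid carrier of macrophages, ran from 3605 to 9154 CPM in the 5 libraries and was at 1127 CPM in the sixth.

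Receptors and secreted signals of the lists showed a wide range of levels. Of the 16 ITAM and Fc receptor genes 12 reached a mean of 20 CPM, and *Fcgrt*, which encodes the neonatal Fc receptor that protects IgG from breakdown, was at 189.7, 136 and 479 CPM in WT control and at 260.3, 183 and 314 CPM in *Smc3* +/-. *Ifngr1*, a chain of the interferon gamma receptor, was at 1075, 704 and 876 CPM in WT control and at 824, 479 and 498 CPM in *Smc3* +/-, and the groups overlapped. *Cd14*, the coreceptor for lipopolysaccharide, was at 68.1 to 149 CPM in the 5 libraries and at 16.3 CPM in replicate 2 of *Smc3* +/-. Of the 12 cytokine genes 3 reached 20 CPM, namely *Tgfb1*, *Il18* and *Il1b*. *Il18*, a cytokine that prompts interferon gamma release, was at 253, 114 and 413 CPM in WT control and at 260.3, 42.2 and 341 CPM in *Smc3* +/-. *Il1b* was listed at 0 in WT control replicate 3 and in replicate 3 of *Smc3* +/-, and reached 43.4 to 189.7 CPM in the other 4 libraries.

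*Ccl6* and *Ccl9* were not low in replicate 2 of *Smc3* +/-. *Ccl6* was at 1075, 977 and 743 CPM in WT control and at 390.5, 1094 and 812 CPM in *Smc3* +/-, and *Ccl9* was at 253, 249.8 and 182 CPM in WT control and at 130.2, 456 and 341 CPM in *Smc3* +/-. The 14 chemokine genes summed to 1328, 3725 and 975 CPM in WT control and to 607, 1885 and 4191 CPM in *Smc3* +/-. The interferon-response gene *Ifi27l2a* was at 822, 999 and 876 CPM in WT control and at 998, 428 and 1231 CPM in *Smc3* +/-. *Slpi*, a secreted inhibitor of neutrophil proteases, was uneven, at 569, 1136 and 3684 CPM in WT control and at 3037, 104 and 1362 CPM in *Smc3* +/-. *S100a6*, a calcium-binding protein, was at 1454.5, 454 and 694 CPM in WT control and at 217, 1542 and 917 CPM in *Smc3* +/-. Immediate early genes, which respond to a stimulus and also to tissue handling, summed to 5122, 2544 and 2164 CPM in WT control and to 3427.5, 2657.5 and 2409.8 CPM in *Smc3* +/-, so the groups overlapped.

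MHC class II went the other way. Its 10 genes summed to 36109.5, 49265 and 27359 CPM in WT control and to 45121, 96406 and 40103 CPM in *Smc3* +/-, where replicate 2 was the highest of all. *Cd74*, the invariant chain that guides MHC class II, was at 22070.4, 24985 and 15728 CPM in WT control and at 27463, 51843 and 21898 CPM in *Smc3* +/-. The groups overlapped for *Cd74*, since replicate 3 of *Smc3* +/- lay below WT control replicates 1 and 2.

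*Cyba* and *Spi1* were more even across libraries than the macrophage factor *Maf*. *Cyba*, a membrane subunit of the phagocyte oxidase, was at 2972, 1908 and 2412 CPM in WT control and 3211, 1797 and 2541 CPM in *Smc3* +/-. *Spi1* was at 1012, 522 and 463 CPM in WT control and at 434, 490.0 and 681 CPM in *Smc3* +/-. *Maf*, a factor of mature macrophages, was at 114 to 506 CPM in the 5 libraries and at 18.1 CPM in replicate 2 of *Smc3* +/-. *Cebpb*, a factor that *Ly6c2*-low monocytes depend on, was highest in WT control replicate 1, at 2403 CPM, and lay between 367 and 954 CPM in the rest.

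Markers of B and T cells were low but not absent. The B cell list summed to 63.2 to 347 CPM in the member cells, against 2571 to 5908 CPM in other barcodes, and the T cell list to 0 to 174 CPM, against 132 to 414 CPM. Immunoglobulin constant genes summed to 651 to 1126 CPM in the member cells of the 5 libraries and to 11446 CPM in those of replicate 2 of *Smc3* +/-, where the other barcodes reached 557869 CPM. Neutrophil genes summed to 288 to 2379 CPM, against 3.19 to 1328 CPM in other barcodes and 153511 CPM in the 42 neutrophil-lineage cells. The natural killer (NK) cell list, some of whose genes myeloid cells also express, summed to 43.4 to 284 CPM, against 8.68 to 35.0 CPM. The 7 erythroid genes were not low throughout. They summed to 0, 2135 and 1140.0 CPM in WT control and to 86.8, 5659.9 and 52.4 CPM in *Smc3* +/-, against 66.7 to 1356 CPM in other barcodes, so 2 libraries exceeded the highest level of the other barcodes. Few cells had many such UMIs, with more than 10 hemoglobin UMIs in 9 of 596 member cells (1.51%) of replicate 2 of *Smc3* +/- and in 4 of 93 (4.30%) elsewhere. The part of free RNA in any of these values was not tested.

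Clustering split the 689 cells into 7 clusters, and these go partly against the label. Names rest on the marker lists, with a scoring rule that was set once the clusters were known. Of the 7, 4 met it: *Ly6c2*-low monocyte-like (115 cells), red pulp macrophage-like (71 cells), cDC1-like (56 cells) and mature dendritic cell (DC)-like (14 cells). The other 3, with 278, 86 and 69 cells, are called here by leading genes. Dendritic cells are neither monocytes nor macrophages, so the 70 cells of the cDC1-like and mature DC-like clusters stood against the label. The unnamed cluster of 278 cells may do so as well, since it had the highest cDC2 and MHC class II list levels of the 7 and low *Csf1r* (92.6 CPM) and *Adgre1* (73.9 CPM), and its cells could not be assigned to either side.

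The largest cluster, with 278 cells, was led by *Mgl2*, *Klrd1*, *Cd209d*, *Cd209a* and *Clec10a*. Its summed level was 129670 CPM for MHC class II and 3444 CPM for the cDC2 list, the highest of the 7 clusters for the latter. *Cd209a*, a lectin of monocyte-derived and cDC2 cells, was at 2541 CPM, and *Clec10a*, a galactose lectin, at 497 CPM. Its marginal zone macrophage list summed to 2608 CPM, mostly from *Cd209a*, which both lists hold, while *Marco* and *Siglec1* were at 0, as in most of the other clusters. *Cd209b*, a lectin of marginal zone macrophages and among the top 10 genes here, was at 63.8 CPM, against 0 to 13.2 CPM in the other clusters. The marginal zone macrophage and cDC2 lists each had 2 genes in the top 10, and the cluster stayed unnamed. *Lyz2* was at only 1903 CPM here, against 41830 CPM in the cluster led by *Ly6c2*. The cells came almost entirely from 1 library, with 274 in replicate 2 of *Smc3* +/- and 1, 1, 1, 0 and 1 in the others, so this cluster may mark that library as much as a cell type.

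The *Ly6c2*-low monocyte-like cluster had all 8 of its markers at their highest among the clusters. *Ace* was at 616 CPM, *Ear2* at 1091 CPM, *Spn* at 427 CPM, *Cx3cr1* at 339 CPM and *Nr4a1*, the nuclear receptor that these cells require, at 393 CPM. *Fcgr4*, an Fc receptor for IgG that patrolling monocytes carry, was at 772 CPM here and at 0 to 189.8 CPM in the other clusters. It was not a cluster of replicate 2 of *Smc3* +/- alone: it held 3, 2 and 7 cells of the WT controls and 3, 100 and 0 cells of *Smc3* +/-.

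The cluster of 69 cells was led by *S100a8*, *Retnlg*, *Ly6c2* and *Chil3*, with 4 genes of the *Ly6c2*-high monocyte list and 4 of the neutrophil list among its top 10. All 8 genes of the first list and 9 of the 10 of the second were highest in this cluster, so neither list stood clear and it received no name. *Ly6c2* was at 1652 CPM, *Ccr2*, the receptor by which monocytes leave the marrow, at 983 CPM, *F13a1* at 511 CPM and *Lyz2* at 41830 CPM. *S100a8* was at 1786 CPM, far below the 100819 CPM of the neutrophil-lineage cells. *Top2a* was among its leading genes, and cell cycle genes summed to 3690 CPM, compared with 486 to 776 CPM in the other clusters. Its cells came from all 6 libraries, with 1, 2 and 3 in WT control and 2, 58 and 3 in *Smc3* +/-.

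The cluster of 86 cells was led by *Retnla*, a secreted protein of alternatively activated macrophages, and *Saa3*, an acute phase protein. *Retnla* was at 1399 CPM and at no more than 6.77 CPM in any other cluster, and *Saa3* at 481 CPM. MHC class II summed to 101941 CPM and *Lyz2* was at 17672 CPM. The *Retnla* counts came from few libraries, with 130 UMIs in WT control replicate 2, 189 UMIs in replicate 2 of *Smc3* +/- and none in the other 4.

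The cDC1-like cells carried *Xcr1* at 486 CPM, a chemokine receptor that was at 0 in the other 6 clusters, with *Clec9a* at 264 CPM, *Irf8* at 2212 CPM and *Cst3* at 41318 CPM. *Fcer1g* was at only 157 CPM and *Csf1r* at 0, and 48.2% of these cells had all 5 rule genes. The top 10 genes held 1 cDC1 gene and 1 gene of the germinal center B cell list, *Gcsam*, at 188 CPM. The name rests on the 6 of 6 cDC1 genes that were highest in this cluster, against 2 of 6 of the other list. The mature DC-like cells had *Fscn1* at 1006 CPM, *Il4i1* at 1323 CPM, *Ccr7*, the receptor that guides migration to T cell zones, at 230.0 CPM and the chemokine *Ccl5* at 7677 CPM.

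**Figure D3:**
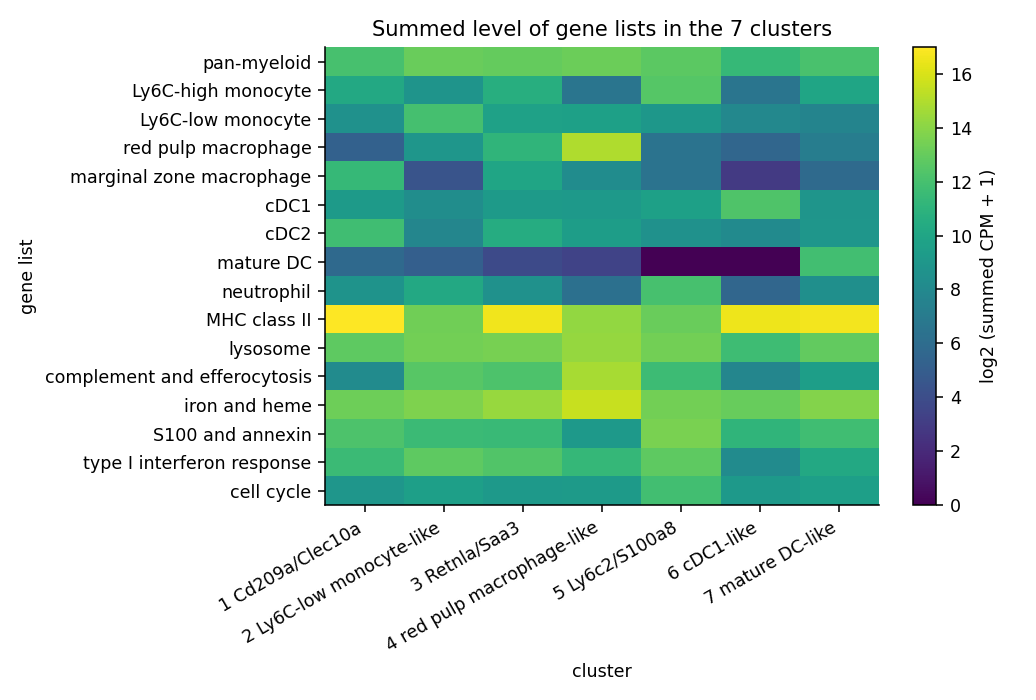
Summed level of 16 gene lists in the 7 clusters of member cells, as log2 of summed CPM + 1, all libraries together, with dark colours for low and yellow for high levels. The red pulp macrophage, complement and iron lists peak in cluster 4, the Ly6C-low list in cluster 2, the cDC1 list in cluster 6 and the mature DC list in cluster 7.

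Red pulp macrophage-like cells were the group that the libraries had most in common. All 10 of the list's genes were at their highest in this cluster, with *Vcam1* at 5066 CPM, *C1qa* at 5505 CPM, *Hmox1* at 4198 CPM, *Slc40a1* at 2920 CPM and *Spic* at 1097 CPM. WT control libraries held 6, 5 and 17 such cells and *Smc3* +/- libraries 6, 25 and 12, so it was the only cluster with 5 or more cells in each of the 6 libraries. Only 14.1% of these cells had all 5 rule genes. *Lyz2* had 2, 85 and 3 UMIs in those of WT control and 0, 54 and 135 UMIs in those of *Smc3* +/-, while *Tyrobp* was even, at 2990.4 to 4367 CPM. *Ccr3*, an eotaxin receptor best known from eosinophils, was also at 639 CPM in this cluster and at 0 in the others.

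Composition therefore differed far more between replicate 2 of *Smc3* +/- and the rest than between genotypes. Red pulp macrophage-like cells made up 46.2, 29.4 and 54.8% of member cells in WT control and 50, 4.19 and 60.0% in *Smc3* +/-. Summed over the 5 libraries they were 46 of 93 cells (49.5%, exact interval 38.9 to 60.0), against 25 of 596 (4.19%, 2.73 to 6.13). In number replicate 2 of *Smc3* +/- held the most of them, 25 cells against 5 to 17. The *Cd209a* and *Clec10a* cluster made up 46.0% of member cells in that library and 0 to 7.69% in the others. For the 0 among the 12 cells of *Smc3* +/- replicate 1 the exact interval reaches up to 26.5%.

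**Figure D4:**
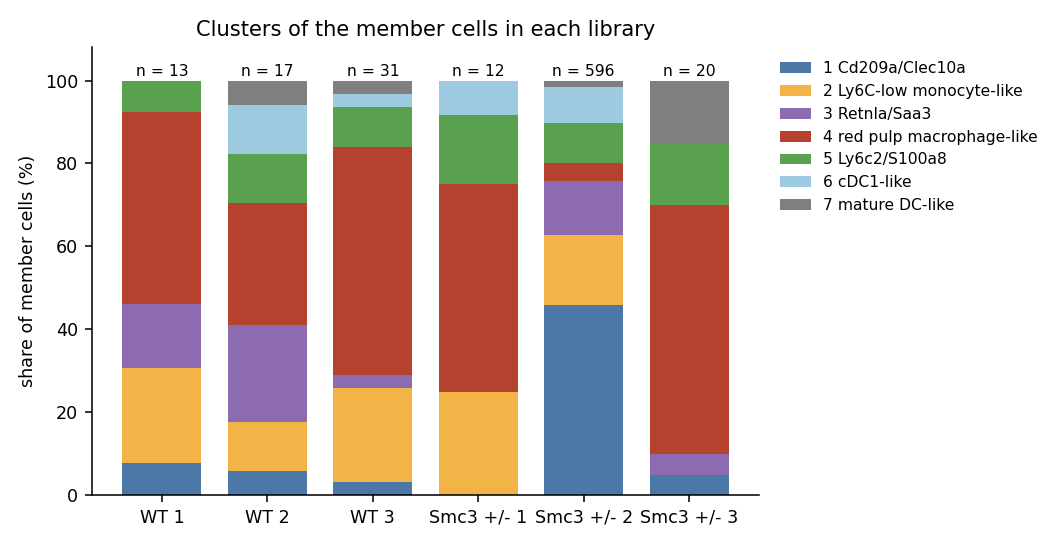
Share of member cells (%) in each of the 7 clusters, as stacked bars for each library with the number of member cells above. The red pulp macrophage-like segment spans 29.4 to 60.0% in 5 libraries and 4.19% in Smc3 +/- replicate 2, where the Cd209a and Clec10a cluster takes 46.0%.

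None of the 7 cluster shares differed between genotypes beyond the spread between libraries. Red pulp macrophage-like cells averaged 43.5% ± 12.9 (SD, n = 3) in WT control and 38.1% ± 29.8 (SD, n = 3) in *Smc3* +/- (exact permutation test, p = 0.9). Without replicate 2 of *Smc3* +/- the difference turned from -5.40 to 11.5 percentage points (exact permutation test, p = 0.4). The *Ly6c2* and *S100a8* cluster had the smallest p, with 9.71% ± 2.04 (SD, n = 3) in WT control and 13.8% ± 3.62 (SD, n = 3) in *Smc3* +/- (exact permutation test, p = 0.2), and the difference moved from 4.09 to 6.12 percentage points without replicate 2 of *Smc3* +/- (exact permutation test, p = 0.2, the smallest that 3 against 2 libraries allow). After Benjamini-Hochberg adjustment over the 7 shares every adjusted p was 1, and the exact permutation test cannot give a p under 0.1 here.

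Within the red pulp macrophage-like cells all defining genes were detected in every library. These genes led the cluster and gave it its name, so their levels follow in part from how the cells were grouped and are given as a description. *C1qb* was at 3551, 5631 and 6520.5 CPM in WT control and at 6923, 3177 and 4740.4 CPM in *Smc3* +/-, so that replicate 2 of *Smc3* +/-, far below the rest among all member cells, lay beside WT control replicate 1. *Vcam1* was at 9346, 3941 and 5075 CPM in WT control and at 7243, 4049 and 4904 CPM in *Smc3* +/-. *Hmox1* was at 5981, 4786 and 4275 CPM in WT control and at 5858, 3613 and 3487 CPM in *Smc3* +/-. The groups overlapped in all 3 genes. Other genes of the list ranged more widely, with *Hpgd*, which breaks down prostaglandins, at 374 to 1598 CPM and *Cd5l*, a secreted scavenger protein of macrophages, at 374 to 1292 CPM. Replicate 2 of *Smc3* +/- was the lowest library for *Spic*, *Slc40a1*, *Hpgd*, *C1qb* and *C1qc*. The whole list summed to 34206, 32939 and 37001 CPM in WT control and to 43881, 23549 and 29478 CPM in *Smc3* +/-, with replicate 2 again the lowest.

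**Figure D5:**
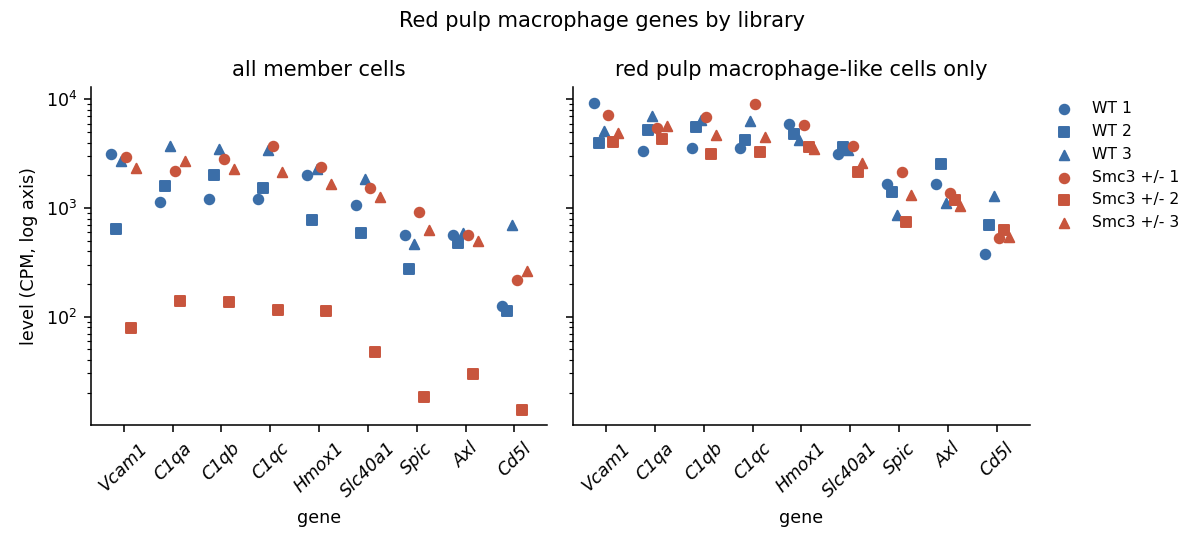
Level (CPM, log axis) of 9 red pulp macrophage genes in all member cells (left) and in the red pulp macrophage-like cells only (right), 1 point per library, WT control in blue and Smc3 +/- in red, with circle, square and triangle for replicates 1, 2 and 3. Smc3 +/- replicate 2 lies below every other library on the left and closer to them on the right, where it is still the lowest for several genes.

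RNA of other cells differed in the same cluster. *Igkc*, the kappa light chain constant gene, was at 748, 985 and 461 CPM in the red pulp macrophage-like cells of WT control and at 639, 31742 and 599 CPM in those of *Smc3* +/-. The hemoglobin gene *Hbb-bs* was at 0, 422 and 923 CPM in WT control and at 107, 25200.1 and 0 CPM in *Smc3* +/-. In replicate 2 of *Smc3* +/- 5 of the 25 cells (20%) had more than 10 hemoglobin UMIs, compared with 3 of 46 (6.52%) in the other libraries. Scrublet, a doublet score, marked 4 cells of this cluster, all of them in replicate 2 of *Smc3* +/-. Engulfed cells, free RNA and doublets were not told apart, and their part in these values was not tested.

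Between genotypes, no gene passed the test in the member cells. With edgeR's quasi-likelihood test on UMIs summed per library, 0 of 611 genes (0%), among them the 5 rule genes, which are not read as results, had a Benjamini-Hochberg adjusted p under 0.05. At an unadjusted p under 0.05 there were 11 genes, and DESeq2 called 0 with 2 at an unadjusted p under 0.05. All 3 *Smc3* +/- libraries lay above all WT controls for 16 genes (2.62%) and below for 28 (4.58%). None of these was on the red pulp macrophage, complement, lysosome, iron or MHC class II list. Of the pan-myeloid list, *Ms4a6c* and *Mpeg1* were among those below, with 2 of 10 tested genes. *Ms4a6c* was at 1075, 818 and 710.4 CPM in WT control and at 607, 642 and 629 CPM in *Smc3* +/-, and *Mpeg1*, the pore-forming perforin-2 of phagocytes, was at 443, 499.7 and 628 CPM and at 304, 343 and 314 CPM. *Jun*, of the immediate early list, was among the genes above, at 253, 318 and 264 CPM in WT control and at 694, 386 and 393 CPM in *Smc3* +/-. *Prdx5*, a peroxiredoxin of the antimicrobial list, *Rac2* of the NADPH oxidase list and *Ifitm6* of the neutrophil list were also among those below. None of these 6 genes was called.

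By list, the medians followed replicate 2 of *Smc3* +/-. Of the red pulp macrophage list 9 of 10 genes were tested, 8 had a lower and 1 a higher fitted level in *Smc3* +/-, and the median log2 fold change was -0.36, with 0.0030 over all tested genes. Without replicate 2 of *Smc3* +/- 9 of 10 were higher and the median was 0.28. The MHC class II list had 6 of 6 tested genes higher, with a median of 0.75, which became 0.15 with 5 of 6 higher without that library. The lysosome list had 5 of 14 higher with a median of -0.074, turning to 10 of 14 and 0.35, and the complement and efferocytosis list had 1 of 6 higher with a median of -0.22, turning to 6 of 6 and 0.36. The S100 and annexin list had 5 of 5 higher with a median of 0.25, turning to 2 of 5 and -0.33, and the transcription factor list had 2 of 9 higher with a median of -0.27, turning to 6 of 9 and 0.12. The median of the pan-myeloid list stayed below 0, at -0.39 with 1 of 10 genes higher. Without that library it was -0.091 with 3 of 10 higher, close to the 0.020 over all tested genes in that fit. No gene of any list was called in either fit.

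Single genes showed how wide the errors were. The log2 fold change of *Smc3* +/- over WT control was -0.38 ± 0.88 (SE) for *C1qb*, -0.26 ± 1.04 for *Vcam1* and -0.30 ± 0.90 for *Hmox1* in all member cells, each with an edgeR adjusted p of 0.999. Without replicate 2 of *Smc3* +/- these values turned to 0.24, 0.38 and 0.33. The direction also turned without WT control replicate 3 for *C1qb* (0.15) and *Hmox1* (0.034) and without WT control replicate 1 for *Vcam1* (0.059). In the red pulp macrophage-like cells it was -0.058 ± 0.39, -0.16 ± 0.43 and -0.17 ± 0.40, with adjusted p of 0.999 in edgeR. The standard errors were smaller there, but these genes define the cluster, so a smaller spread follows in part from the choice of cells. *Csf1r* was at -1.01 ± 0.60 and *Cd74* at 0.75 ± 0.36 in all member cells. Without replicate 2 of *Smc3* +/- they were at -0.45 and 0.32. *C1qb* depended on the cells chosen: in cells with all 5 rule genes it was at -3.51 ± 0.72 (edgeR adjusted p = 0.090). That choice left 7, 8 and 13 cells in WT control and 3, 491 and 4 in *Smc3* +/-. It kept only 14.1% of the red pulp macrophage-like cells, where *C1qb* was highest. In all member cells *C1qb* was at -1.95 with sex as a covariate and at -1.05 with the replicate block. *Igkc* was at 2.55 ± 0.999 in all member cells and, with replicate 2 of *Smc3* +/- left out, at 0.24.

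In the red pulp macrophage-like cells alone, 0 of 185 genes (0%) were called and 1, *Igkc*, had an unadjusted p under 0.05. All *Smc3* +/- libraries lay above all WT controls for 1 gene (0.541%) and below for 6 (3.24%), *Laptm5* of the lysosome list among the latter. Only 12 to 31 member cells stood behind each library other than replicate 2 of *Smc3* +/-, and the 95% interval for *C1qb* in all member cells, from -2.37 to 1.61, leaves room for a change of several-fold either way.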

How the data were processed

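Single cell RNA-seq (10x 3′ chemistry) was deposited for 6 libraries, 3 per genotype, grouped by their titles and genotype labels. The authors made UMI counts per gene and barcode with Cell Ranger 3.0.2 (per the file headers), and their processing notes name R 4.0.2, Seurat 4.0.0 and the mm10 build. The deposited counts cover 31053 features and were used as they stand, and 0 columns were left unused. Libraries held 5223325 to 35354257 UMIs, and 21924 of 22939 barcodes passed the filter. Nothing in the labels ties a library to a separate animal, so p-values measure the spread between these libraries only.

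UMIs of member cells were summed per library and tested with edgeR 4.0.16 (filterByExpr, TMM, quasi-likelihood test, Benjamini-Hochberg threshold 0.05), with DESeq2 1.42.0 as an alternative. Shares were compared over libraries with two-sided exact permutation tests in scipy 1.17.1. Member cells were clustered with numpy 2.4.6, scikit-learn 1.9.0 and leidenalg 0.10.2 on 2000 variable genes without immunoglobulin, mitochondrial, ribosomal and sex-linked genes. The settings were 20 components, 15 neighbours and Leiden resolution 0.5, with no integration. Scrublet, run in scanpy 1.11.5, marked 742 barcodes (3.38%), 14 of them member cells, all in replicate 2 of *Smc3* +/-. The marked barcodes were kept, and left out in an alternative. Log2 ratios used a pseudocount of 10 CPM. Scripts were tested on simulated data.

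The members and gene lists were chosen with earlier results of these data known, and the scoring of cluster names and the promoter strings were chosen after these data were seen. Genes are named from the rule, the lists (at least 20 CPM on average) and the 20 highest ratios to other barcodes, outside the rule genes. Genes outside the fixed lists that are named for clusters, such as *Retnla*, *Saa3* and *Mgl2*, were chosen after their values were seen. Replicate numbers in the titles were used as pairs in the replicate block, though no label states a pairing. Deviations of same-numbered libraries had correlations of 0.189, 0.485 and 0.196 in the 3 pairs. Differently numbered libraries were not compared, so these values cannot show that the libraries were paired. Alternatives changed the cell filters, marker minimum, depth, doublets, size factors, low-count filter, sex as a covariate, replicate block, clustering and the libraries left out.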

Additional observations from a re-analysis of the deposited data

How the results depend on the processing

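Of 275 alternative values, 249 were counted as unchanged, which for tested values covers direction and side of the threshold and not size. That count overstates stability. It includes an entry per cluster for a minimum of 5 member cells per library, which repeats the main value because every library had more. It also includes the mature DC-like cluster in the settings where it had no match. For shares the exact permutation test cannot give a p under 0.1, so their side of the threshold was fixed beforehand. The difference in share between genotypes ranged from -0.297 to 7.22 percentage points with single libraries left out, and its direction turned only without replicate 2 of *Smc3* +/-. With the replicate block it stayed at 4.70 (exact permutation test, p = 1), and no gene was called in that fit, where 22 had p under 0.05 before adjustment, so the block changed no call. Without a low-count filter edgeR called 5 of 12644 genes, of which 3 were list genes (*Cd209a*, *Jchain* and *Igha*), and the median over all genes moved to 0.61 on the log2 scale. The other 2 were *Mgl2* and *Retnla*, and nearly all UMIs of *Cd209a*, *Jchain*, *Igha* and *Mgl2* came from replicate 2 of *Smc3* +/-.

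With single libraries left out, the cluster differences ranged from -3.10 to 19.9 percentage points for the *Cd209a* and *Clec10a* cluster, -10.8 to 1.75 for *Ly6c2*-low monocyte-like, -16.4 to 11.5 for red pulp macrophage-like, -1.81 to 4.07 for cDC1-like, -2.28 to 5.22 for mature DC-like cells, -13.4 to -3.28 for the *Retnla* and *Saa3* cluster and 2.65 to 6.12 for the *Ly6c2* and *S100a8* cluster. With libraries centred before clustering the *Retnla* and *Saa3* cluster turned from -8.02 to 0.575, and the mature DC-like cluster had no match there or with 30 neighbours. In all member cells with single libraries left out, log2 fold changes ranged from -0.87 to 0.24 for *C1qb*, -0.77 to 0.38 for *Vcam1*, -0.90 to 0.33 for *Hmox1*, -1.36 to -0.45 for *Csf1r* and 0.32 to 0.98 for *Cd74*, and in red pulp macrophage-like cells from 0.12 to 0.62 for *Cd74*. *C1qb* moved to -3.51 in cells with all 5 markers, -1.95 with sex as a covariate and -1.05 with the replicate block, without a call. It was at -1.47 in libraries with at least 20 member cells, where WT control kept only replicate 3, against replicates 2 and 3 of *Smc3* +/-. With sex as a covariate *Vcam1* was at -2.21 and *Hmox1* at -1.82. In red pulp macrophage-like cells with 1 library left out, values that turned were 0.054, 0.12, 0.19 and 0.065 for *C1qb*, 0.37 for *Vcam1*, and 0.058 and 0.019 for *Hmox1*. *Csf1r*, *Cd74* and *Igkc* kept their direction in all alternatives run. The cause of these turns was not tested.

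Depth limits all genotype comparisons: 5 libraries held 12 to 31 member cells each, so single cells move their shares and levels, and the sixth library differed from them in immunoglobulin content, cell composition and number of member cells.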

Other observations

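Some barcodes outside the rule carried lymphocyte and myeloid genes together. In replicate 2 of *Smc3* +/- 82 of 2782 barcodes with at least 2 *Cd79a* UMIs also had 4 or more of the 5 rule genes, at a median of 9876.5 UMIs per B cell barcode. In the same library 18 of 156 barcodes with at least 2 *Cd3* UMIs and no *Cd79a* did.

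The chemokine *Ccl5* was uneven among member cells, at 0, 2362 and 0 CPM in WT control and at 86.8, 216 and 2567 CPM in *Smc3* +/-. The mature DC-like cluster, where it reached 7677 CPM, held 0, 1 and 1 cells of WT control and 0, 9 and 3 cells of *Smc3* +/-. *Clec4n*, the lectin dectin-2, was at 63.2, 295 and 1057 CPM in WT control and at 868, 30.7 and 812 CPM in *Smc3* +/-.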
